A study of Mus musculus with 4 samples.

Results

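Interferon-stimulated genes are the targets that cells switch on when interferon binds its receptors. To learn how this program stood in mesenchymal cells without Bap1, 44 listed genes were read from an RNA-Seq table of fibroadipogenic progenitors (FAPs), the interstitial progenitors of skeletal muscle. The members were chosen by symbol from a list made with earlier results of these data known. Of the 44, 43 stood among the 20027 genes of the table. Mx1, a dynamin-like antiviral GTPase, had no row and was not analysed here. Levels are reads per kilobase of transcript per 1000000 reads (RPKM). A gene was tested when at least 2 libraries reached 1 RPKM, which held for 42 members and 11197 genes in all.

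The cells were sorted from hind limb muscle of C57BL/6 males in the second week of life as Sca1+ cells lacking CD31, CD45, and Vcam1, and RNA was taken without culture. The 2 cKO libraries came from Prx1-Cre;Bap1f/f males, in which Cre acts in limb mesenchyme and its descendants and removes the deubiquitinase gene Bap1 there. The 2 WT libraries came from males titled Prx1-Cre, whereas controls in the study's text are floxed mice, so the control genotype is not settled by the sources used here. The titles number the males within each genotype, and neither group was treated.

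Type I interferons signal through Janus kinases to a complex that contains Stat2 and Irf9 and binds the interferon-stimulated response element, whereas interferon gamma acts through gamma-activated sites. The induced proteins include guanylate-binding and immunity-related GTPases that act on the membranes of intracellular pathogens, sensors that recognise foreign or misplaced nucleic acid, transcription factors that carry the response further, and effectors that block viral entry, translation, or release. Several of these genes are also expressed at rest through basal interferon signalling or independently of it.

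The response element stands close to the start of many of these genes, so the stretches that hold it are shown first for members of each behaviour. RefSeq promoter windows (build GRCm38.p6, 250 bases before to 50 bases after a start) were found for 34 of the 44 members. They were searched on both strands for GAAANNGAAA, written TTTCNNTTTC on the other strand, and for the gamma-activated site TTCNNNGAA, which reads the same on both strands. Capitals mark the bases of each response element match, and each stretch is written 5′ to 3′ on the strand of its gene. The first 6 members passed the test as higher in cKO FAPs and the last 3 did not pass.
Gbp2, chr3:142620569-142620648, plus strand: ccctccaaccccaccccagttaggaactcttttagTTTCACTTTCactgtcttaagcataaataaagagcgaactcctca
Igtp, chr11:58199487-58199565, plus strand: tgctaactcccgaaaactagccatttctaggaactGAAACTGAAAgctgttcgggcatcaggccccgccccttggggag
Oas1a, chr5:120907516-120907574, minus strand: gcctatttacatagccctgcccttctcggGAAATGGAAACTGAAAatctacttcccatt
Isg15, chr4:156200840-156200919, minus strand: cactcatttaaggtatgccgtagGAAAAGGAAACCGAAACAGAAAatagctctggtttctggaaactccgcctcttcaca
Rsad2, chr12:26456528-26456607, minus strand: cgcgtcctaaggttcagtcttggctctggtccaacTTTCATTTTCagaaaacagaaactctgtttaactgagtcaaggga
Ifit1, chr19:34640769-34640848, plus strand: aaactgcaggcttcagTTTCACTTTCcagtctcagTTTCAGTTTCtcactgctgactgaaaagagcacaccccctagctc
Irgm1, chr11:48871411-48871479, minus strand: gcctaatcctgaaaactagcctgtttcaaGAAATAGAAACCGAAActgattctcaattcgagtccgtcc
Ifit3, chr19:34583372-34583451, plus strand: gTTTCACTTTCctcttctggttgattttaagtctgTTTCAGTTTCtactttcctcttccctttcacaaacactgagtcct
Ifitm2, chr7:140955963-140956042, minus strand: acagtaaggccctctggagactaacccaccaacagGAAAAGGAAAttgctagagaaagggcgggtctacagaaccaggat

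In Isg15 3 overlapping matches form a run, and in Ifit1 and Ifit3 a pair of separate matches lies within the stretch. The response element was found in 18 of the 34 members with a window (52.9%), against 1079 of 27025 genes with windows of the same length (3.99%). It was held by 5 of 5 GTPases, 4 of 5 sensors, 1 of 4 transcription factors, and 8 of 20 effectors. A gamma-activated site match was found in 10 members (29.4%), against 2582 of all genes (9.55%), and 6 members held both. These matches are letters in a window and do not show that a factor bound there.

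The listed interferon-stimulated genes were mostly higher in cKO FAPs. With limma on log2(RPKM + 1) and Benjamini-Hochberg adjustment over all tested genes at 0.05, 28 of 42 tested members rose, 0 fell, and 14 did not pass. Over all tested genes 35.9% were called higher and 6.48% lower, so the deposited scale leaned toward higher calls. The median fold change of the members was 0.64 on the log2 scale, 0.38 above the median tested gene, which itself stood at 0.27. Both cKO libraries lay above both WT libraries for 38 of 42 members, a pattern that 56.8% of all tested genes shared, 0 members had both cKO libraries below both WT libraries, and 4 overlapped. In bulk RNA, more expressing cells and more RNA per cell cannot be told apart.

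**Figure D1:**
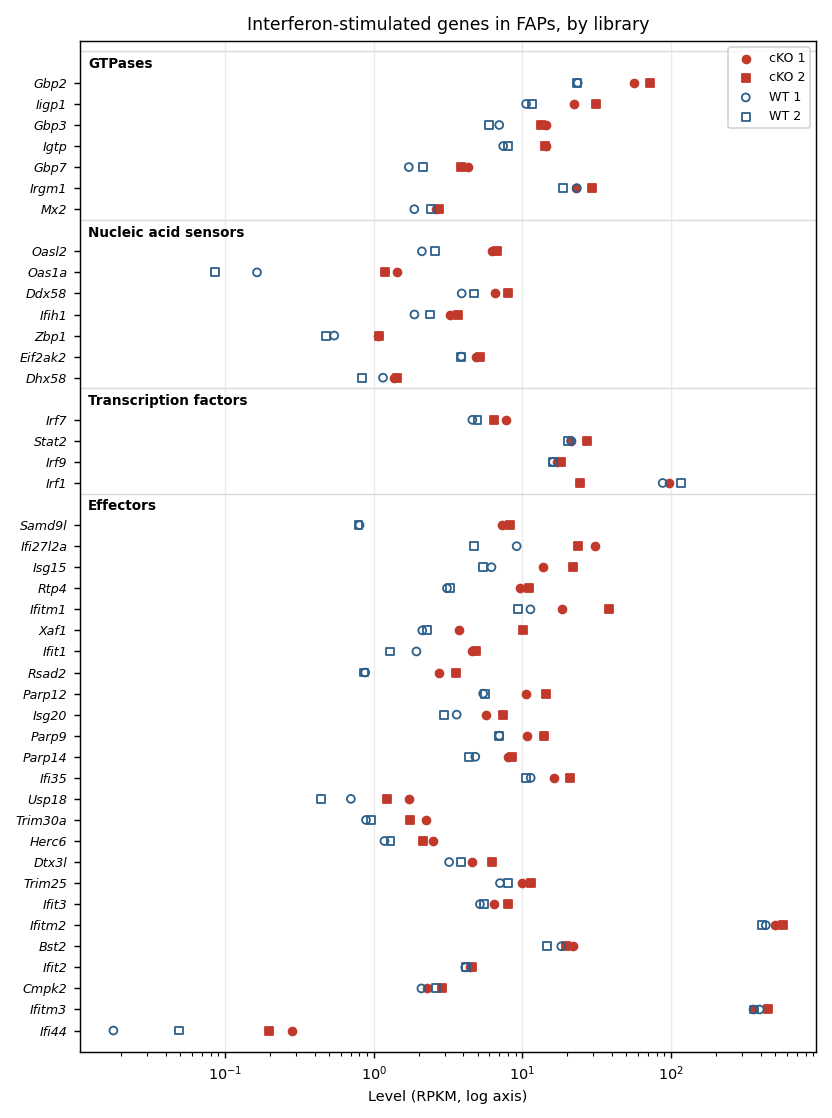
Level of each member (RPKM, log axis) in every library, with members in rows by role, filled red symbols for the 2 cKO libraries and open blue symbols for the 2 WT libraries (circles for library 1, squares for library 2). Filled symbols lie right of open ones in most rows, with wide gaps in Samd9l, Oas1a, and the untested Ifi44, whereas Irf1 is low in cKO 2 alone.

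The shift of the whole table bears on how many members are counted, so the values were also rescaled to centre the libraries on each other. Under median-ratio scaling, 15 of 42 members (35.7%) were called higher and 0 lower, against 14.8% of all genes higher. Quantile normalization called 15 members (35.7%) against 15.9% of all genes, and cyclic loess called 16 members (38.1%) against 16.8%. Among all tested genes the split of calls was 4016 higher and 726 lower as deposited, 1661 and 1593 under median-ratio scaling, 1777 and 1818 under quantile normalization, and 1885 and 1710 under cyclic loess. The median of the members was then 0.42, 0.38, and 0.41 in the same order of scalings, with the median of all genes at -0.011, -0.017, and -0.0012. Each rescaling kept 15 of the 28 members, and 13 members were called higher under every scaling, filter, pseudocount, and left-out library in which they were tested, with a highest adjusted p of 0.0283 in limma. These were Gbp2, Gbp3, Igtp, Iigp1, Oasl2, Oas1a, Samd9l, Ifi27l2a, Isg15, Rtp4, Ifit1, Rsad2, and Parp12. Among them, Oas1a, Samd9l, and Rsad2 were under 1 RPKM in both WT libraries. At the filter of 1 RPKM these had to be higher to be tested, so their calls there lend no support. The same holds at the filter of 5 RPKM for Oasl2, Rtp4, and Samd9l, which were under it in both WT libraries. The calls of members outside these 13 were each lost in at least 1 of these settings.

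**Figure D2:**
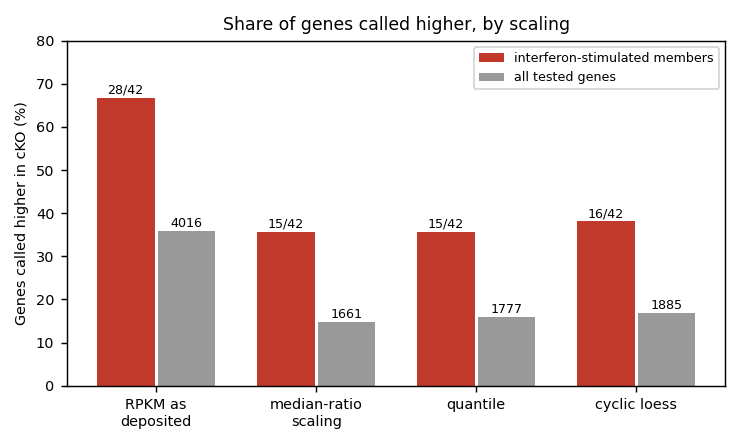
Share of genes called higher in cKO (percent) for the members (red) and for all tested genes (grey) as deposited and under 3 scalings, with counts above the bars. The members' share was 66.7% as deposited and 35.7% to 38.1% after rescaling, above the share of all genes in each pair of bars.

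Among the GTPases, 5 of 7 rose, with a median of 0.82 on the log2 scale. Gbp2, a guanylate-binding protein recruited to pathogen vacuoles, had 55.8 and 72.5 RPKM in cKO FAPs, against 23.5 and 23.3 RPKM in WT FAPs, a log2 fold change of 1.41 (95% interval 1.06 to 1.75, adjusted p = 7.77e-04 in limma). It was the most abundant GTPase of the list, and both cKO libraries lay above both WT libraries. Its SD was 11.8 RPKM between the cKO libraries and 0.18 RPKM between the WT libraries. Iigp1, an immunity-related GTPase that coats parasite vacuoles, had 22.3 and 31.0 RPKM in cKO FAPs, against 10.6 and 11.6 RPKM in WT FAPs (log2 fold change 1.18). Gbp3, a relative of Gbp2, had 14.4 and 13.4 RPKM in cKO FAPs, against 6.98 and 5.95 RPKM in WT FAPs (log2 fold change 1.00). Igtp, a regulatory immunity-related GTPase also known as Irgm3, had 14.5 and 14.3 RPKM in cKO FAPs, against 7.42 and 7.98 RPKM in WT FAPs (log2 fold change 0.82). The cKO libraries agreed closely in Gbp3 and Igtp, and no WT library reached them. Gbp7, another guanylate-binding protein, had 4.33 and 3.86 RPKM in cKO FAPs, against 1.72 and 2.13 RPKM in WT FAPs (log2 fold change 0.80, adjusted p = 0.00728 in limma), and its adjusted p was 0.0607 without WT 1.

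Irgm1, which restrains other immunity-related GTPases and serves autophagy, had the second highest mean of the GTPases over the 4 libraries and did not pass. It had 22.8 and 29.5 RPKM in cKO FAPs, against 23.2 and 18.8 RPKM in WT FAPs, so the groups overlapped. Its log2 fold change was 0.30 (95% interval -0.09 to 0.68, adjusted p = 0.183 in limma), its estimate turned to -0.015, -0.079, and -0.074 under median-ratio, quantile, and cyclic loess scaling, and it passed as higher without cKO 1 (0.48, adjusted p = 0.031). Its promoter stretch, shown above, held 2 overlapping response element matches. Mx2, the cytoplasmic relative of Mx1, stayed between 1.88 and 2.75 RPKM in the 4 libraries and did not pass (adjusted p = 0.301 in limma). Reads of Igtp and the neighbouring Irgm2 share 8.01% of the exon bases of Igtp in the GENCODE annotation, and guanylate-binding genes resemble each other, so their values are uncertain to that extent.

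**Figure D3:**
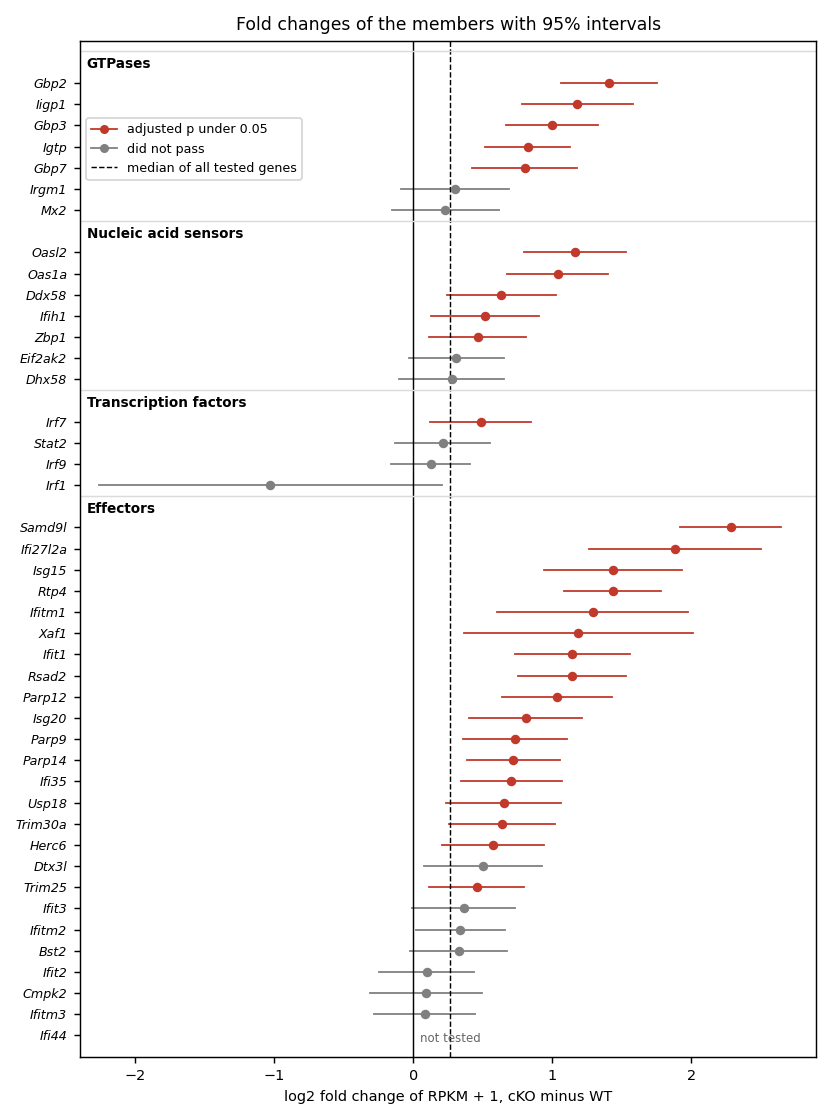
Fold change of each member (log2 of RPKM + 1, cKO minus WT) with its 95% interval from limma, in rows by role, red where the adjusted p was under 0.05 and grey where it was not, with the median of all tested genes as a dashed line. Of the 42 members plotted, 28 are red, and Irf1 is the single member left of 0, with an interval from -2.26 to 0.21.

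Of the nucleic acid sensors 5 of 7 rose, with a median of 0.51 on the log2 scale. Oasl2, an oligoadenylate synthetase-like protein that responds to double-stranded RNA, had 6.25 and 6.73 RPKM in cKO FAPs, against 2.11 and 2.59 RPKM in WT FAPs (log2 fold change 1.16, adjusted p = 0.00194 in limma). Oas1a, an oligoadenylate synthetase activated by double-stranded RNA, had 1.44 and 1.19 RPKM in cKO FAPs, against 0.164 and 0.0856 RPKM in WT FAPs. The mean of Oas1a in cKO FAPs was 10.5 times that of WT FAPs, whereas its log2 fold change of 1.04 on log2(RPKM + 1) understates a change at such low levels. Oasl2 and Oas1a thus had the largest log2 fold changes among the sensors. Oas1a was under 1 RPKM in both WT libraries, so it had to be higher to be tested.

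The RIG-I-like receptors, which detect viral RNA in the cytoplasm, had smaller fold changes. Ddx58, which encodes RIG-I, had 6.51 and 8.01 RPKM in cKO FAPs, against 3.90 and 4.74 RPKM in WT FAPs (log2 fold change 0.63, adjusted p = 0.0201 in limma). Ifih1, which encodes MDA5, had 3.23 and 3.69 RPKM in cKO FAPs, against 1.88 and 2.38 RPKM in WT FAPs (log2 fold change 0.51, adjusted p = 0.0399). Zbp1, a sensor of left-handed nucleic acid that can trigger necroptosis, had 1.08 and 1.08 RPKM in cKO FAPs, against 0.542 and 0.477 RPKM in WT FAPs (log2 fold change 0.46, adjusted p = 0.0411). All 3 of these calls were lost under each of the 3 rescalings, where their fold changes were 0.10 to 0.39. Leaving out WT 1 or cKO 2 also lost all 3, with adjusted p of 0.149 and 0.059 for Ddx58, 0.308 and 0.095 for Ifih1, and 0.197 and 0.054 for Zbp1. Without WT 2 the calls of Ifih1 (0.0952) and Zbp1 (0.285) were lost, and without cKO 1 that of Zbp1 (0.0558).

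Eif2ak2, the kinase PKR that halts translation on double-stranded RNA, had 4.89 and 5.19 RPKM in cKO FAPs, against 3.88 and 3.87 RPKM in WT FAPs. The groups did not overlap, but the log2 fold change of 0.31 did not pass (95% interval -0.03 to 0.65, adjusted p = 0.129 in limma) and lay close to the median tested gene. Dhx58, the regulatory family member LGP2, did not pass either (log2 fold change 0.28, adjusted p = 0.207). Promoter windows of Oas1a, Ddx58, Ifih1, and Eif2ak2 held the response element, and that of Oasl2 did not.

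Of the transcription factors, 1 of 4 passed. Irf7, the interferon-induced factor that amplifies interferon gene expression, had 7.77 and 6.48 RPKM in cKO FAPs, against 4.61 and 4.98 RPKM in WT FAPs (log2 fold change 0.48, adjusted p = 0.0392 in limma). Its call was lost under each rescaling (0.20 to 0.23) and in 3 of the 4 fits without 1 library, with adjusted p of 0.102 without cKO 1, 0.228 without WT 1, and 0.134 without WT 2. Stat2, a subunit of the complex that binds the response element, had 21.4 and 27.1 RPKM in cKO FAPs, against 21.2 and 20.1 RPKM in WT FAPs. The groups of Stat2 stood apart by a narrow margin and its fold change of 0.21 was below the median tested gene (adjusted p = 0.281 in limma, 0.0411 without cKO 1), turning to -0.10 under median-ratio scaling. Irf9, the subunit of that complex that contacts DNA, lay between 16.0 and 18.2 RPKM in the 4 libraries (log2 fold change 0.12, adjusted p = 0.449, and -0.18 under median-ratio scaling).

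Irf1, a factor that both interferon types and inflammatory signals induce, had the highest mean of the factors over the 4 libraries and the widest interval of the members. It had 97.3 and 24.3 RPKM in cKO FAPs, against 87.7 and 115.8 RPKM in WT FAPs. The cKO 1 library lay between the WT libraries and cKO 2 lay below both, so the fold change of -1.03 did not pass (95% interval -2.26 to 0.21, adjusted p = 0.156 in limma). Its fold change was -2.01 without cKO 1 (adjusted p = 8.2e-05) and -0.05 without cKO 2 (adjusted p = 0.828), and it was also called lower without WT 1 (-1.23, adjusted p = 0.0196). The summed level of a list of 15 genes that respond to tissue dissociation had the same order of libraries as Irf1. That sum was 5102 and 2853 RPKM in cKO FAPs, against 4909 and 7075 RPKM in WT FAPs. Single genes of the list did not all share this order. Unlike Irf1, 8 of the 15 had both cKO libraries below both WT libraries, 1 had both above, and 6 overlapped. Of the 15, 7 were called lower. The part of dissociation in the values of Irf1 was not tested.

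Of the effectors 17 of 24 tested members rose, with a median of 0.71 on the log2 scale. Samd9l, an antiviral protein that also restrains cell growth, had 7.25 and 8.27 RPKM in cKO FAPs, against 0.803 and 0.789 RPKM in WT FAPs. Its log2 fold change of 2.28 (95% interval 1.92 to 2.65, adjusted p = 1.45e-04 in limma) was the largest of the members on log2(RPKM + 1), and its mean in cKO FAPs was 9.75 times that in WT FAPs. Ifi27l2a, a small membrane protein of the ISG12 family, had 30.7 and 23.7 RPKM in cKO FAPs, against 9.14 and 4.70 RPKM in WT FAPs (log2 fold change 1.88, adjusted p = 0.00217). Isg15, the ubiquitin-like protein that is attached to new proteins, had 13.8 and 21.9 RPKM in cKO FAPs, against 6.19 and 5.42 RPKM in WT FAPs (log2 fold change 1.44, adjusted p = 0.00255). Its promoter stretch held the run of 3 matches printed above. Usp18, the protease that removes Isg15 and dampens the type I receptor, rose with 1.71 and 1.23 RPKM in cKO FAPs, against 0.702 and 0.444 RPKM in WT FAPs (log2 fold change 0.65, adjusted p = 0.022), but its adjusted p was 0.18 without WT 2, 0.0523 without cKO 1, and 0.0663 to 0.116 after rescaling. Herc6, the mouse ligase that attaches Isg15, had 2.52 and 2.14 RPKM in cKO FAPs, against 1.18 and 1.30 RPKM in WT FAPs (log2 fold change 0.57, adjusted p = 0.0231), which was lost without WT 1 (0.166), WT 2 (0.115), and cKO 1 (0.0516), and after rescaling (0.0699 to 0.0959).

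Genes that act on viral RNA or on virus release did not all pass. Rsad2, which encodes viperin, an enzyme that makes a chain-terminating nucleotide, had 2.74 and 3.55 RPKM in cKO FAPs, against 0.877 and 0.865 RPKM in WT FAPs (log2 fold change 1.14, adjusted p = 0.00245 in limma). Its neighbour Cmpk2, a nucleotide kinase that supplies the substrate of viperin, overlapped between the groups, had a fold change of 0.09 (adjusted p = 0.708), and turned to -0.14 under median-ratio scaling. Ifit1, a protein that binds viral RNA ends, had 4.56 and 4.90 RPKM in cKO FAPs, against 1.94 and 1.29 RPKM in WT FAPs (log2 fold change 1.14, adjusted p = 0.00296). The other members of its family did not pass, with fold changes of 0.36 for Ifit3 (adjusted p = 0.104, and 0.0341 without cKO 1) and 0.10 for Ifit2 (adjusted p = 0.628), of which Ifit2 turned to -0.17 under median-ratio scaling. Ifit3 has a near-identical copy, so its reads may be divided. Isg20, an RNA exonuclease, had 5.71 and 7.35 RPKM in cKO FAPs, against 3.61 and 2.97 RPKM in WT FAPs (log2 fold change 0.81, adjusted p = 0.00967, 0.0535 without WT 2, and 0.0548 to 0.0743 after rescaling). Bst2, the tether that holds budding virus at the membrane, did not pass (log2 fold change 0.32, adjusted p = 0.117, and -0.026 under quantile normalization).

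The interferon-induced transmembrane proteins, which hinder the fusion of viruses with cell membranes, differed by member. Ifitm1 had 18.5 and 37.9 RPKM in cKO FAPs, against 11.3 and 9.28 RPKM in WT FAPs (log2 fold change 1.29, 95% interval 0.60 to 1.98, adjusted p = 0.0114 in limma). The cKO libraries of Ifitm1 differed from each other by more than the WT libraries did. Its fold change was 1.79 without cKO 1 and 0.79 without cKO 2. The call of Ifitm1 was lost under cyclic loess (adjusted p = 0.0532 in limma) and with no filter on low values. Ifitm2 had 499.1 and 564.0 RPKM in cKO FAPs, against 432.6 and 408.0 RPKM in WT FAPs, which did not pass (log2 fold change 0.34, 95% interval 0.02 to 0.66, adjusted p = 0.0848, and 0.0342 without cKO 1). Ifitm3 had 353.7 and 449.5 RPKM in cKO FAPs, against 393.3 and 361.1 RPKM in WT FAPs, and its groups overlapped (log2 fold change 0.08, adjusted p = 0.705, and -0.24 under median-ratio scaling). Ifitm2 and Ifitm3 were thus the most abundant members in every library. These 3 genes resemble each other in sequence, and Ifitm2 shares 40.9% of its exon bases with another annotated gene on the same strand, so the division of reads among them is uncertain.

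All 3 listed ADP-ribosyltransferases rose on the deposited scale, and 1 of them, Parp12, kept its call after rescaling. Parp12, which restrains viral translation, had 10.6 and 14.3 RPKM in cKO FAPs, against 5.44 and 5.60 RPKM in WT FAPs (log2 fold change 1.03, adjusted p = 0.00349 in limma). Parp9 had 10.7 and 13.9 RPKM in cKO FAPs, against 6.99 and 6.91 RPKM in WT FAPs (log2 fold change 0.73, adjusted p = 0.010, and 0.40 to 0.44 after rescaling with adjusted p of 0.088 to 0.102). Parp14 had 7.94 and 8.52 RPKM in cKO FAPs, against 4.82 and 4.39 RPKM in WT FAPs (log2 fold change 0.72, adjusted p = 0.00709, and 0.0533 without WT 2). Its fold change was 0.43 to 0.46 after rescaling, with adjusted p of 0.0532 to 0.0552. Dtx3l, the ubiquitin ligase that pairs with Parp9 at DNA damage and on interferon targets, did not pass (log2 fold change 0.50, adjusted p = 0.0609, and 0.0145 without cKO 1). Parp9 and Dtx3l lie on opposite strands and share 458 exon bases, 9.40% of Parp9 and 8.0% of Dtx3l, so without known strand use some reads cannot be assigned between them.

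The remaining effectors that rose were Rtp4, Xaf1, Ifi35, Trim30a, and Trim25. Rtp4, a receptor transporter that also binds RNA, had 9.57 and 11.0 RPKM in cKO FAPs, against 3.11 and 3.24 RPKM in WT FAPs (log2 fold change 1.44, adjusted p = 7.71e-04 in limma). Xaf1, a pro-apoptotic partner of XIAP, had 3.73 and 10.1 RPKM in cKO FAPs, against 2.12 and 2.27 RPKM in WT FAPs, a log2 fold change of 1.19 (adjusted p = 0.0304) whose size rested on cKO 2 (1.80 without cKO 1 and 0.57 without cKO 2). The call of Xaf1 was lost with no filter (adjusted p = 0.137 in limma) and after rescaling (0.0804 to 0.104). Ifi35, a leucine zipper protein, had 16.2 and 21.0 RPKM in cKO FAPs, against 11.4 and 10.5 RPKM in WT FAPs (log2 fold change 0.71, adjusted p = 0.0101, and 0.35 to 0.40 after rescaling with adjusted p of 0.111 to 0.124). The last of the list are a pair of ring-finger ligases. Trim30a had 2.26 and 1.75 RPKM in cKO FAPs, against 0.887 and 0.956 RPKM in WT FAPs (log2 fold change 0.64, adjusted p = 0.0176, and 0.109 without WT 1 and 0.0879 without WT 2), and rescaling gave 0.43 to 0.45 with adjusted p of 0.0476 to 0.0593. Trim25, which ubiquitinates RIG-I in human cells, had 9.91 and 11.5 RPKM in cKO FAPs, against 7.06 and 7.98 RPKM in WT FAPs (log2 fold change 0.46, adjusted p = 0.0401), which was lost without WT 1 (0.271), WT 2 (0.108), and cKO 2 (0.109), and after rescaling (0.434 to 0.531). Ifi44 was below the filter and untested, with 0.281 and 0.197 RPKM in cKO FAPs, against 0.0178 and 0.0492 RPKM in WT FAPs. An antisense gene covers 16.8% of the exon bases of Ifi35.

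GTPases and sensors were set against factors and effectors. Of the GTPases and sensors 10 of 14 rose, with a median of 0.72 on the log2 scale, against 18 of 28 factors and effectors, with a median of 0.64. The medians differed by 0.07. For scale, the gap between the role groups in median log2 level had an SD of 0.111 between libraries of a genotype. That SD is of levels and not of fold changes. Without WT 1 the difference between the median fold changes was -0.066, but it was 0.29 with a filter of 5 RPKM. The difference thus turned on the filter and on 1 library, and genes are not replicates, so no test was made. After rescaling, 7 GTPases and sensors and 8 to 9 factors and effectors were called higher.

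Members with and without the response element overlapped in their changes. Of the 18 tested members with a match 11 rose, with a median fold change of 0.64, and of the 15 without a match 10 rose, with a median of 0.57. Samd9l, with the largest change, Oasl2, and Parp12 had windows without a match. The match was found in 11 of 21 members that rose and 7 of 12 that did not pass, and in 28 of 64 other interferon-stimulated genes (43.8%).

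A member that is low in WT FAPs can enter the test only through cKO FAPs. For 6 members, Oas1a, Rsad2, Samd9l, Trim30a, Usp18, and Zbp1, both WT libraries were under 1 RPKM, so these had to be higher to be tested. Without them 22 of 36 members rose, with a median of 0.60, where 33.5% of the 10664 genes with at least 1 RPKM in a WT library were called higher and the median of those genes was 0.24.

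The genes upstream of the members were then examined from lists set out by role. Interferon genes themselves were barely detected. All 21 interferon genes in the table were under 1 RPKM in every library, so 0 were tested, and their summed level was 0.569 and 0.521 RPKM in cKO FAPs, against 1.29 and 0.850 RPKM in WT FAPs. The highest, Ifnz, a type I interferon also called limitin, had 0.111 and 0.107 RPKM in cKO FAPs, against 0.373 and 0.491 RPKM in WT FAPs. Ifnb1, Ifna4, and Ifna9 stood in all 4 libraries at the small value that the table gives to genes without reads, within 2%. RNA of FAPs does not show interferon made by other cells, which was not measured.

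Of 10 tested receptor and Janus kinase pathway genes, 1 rose (10%) and 1 fell, with a median of 0.23. Over all tested genes 35.9% were called higher and 6.48% lower, with a median of 0.27. Ifngr1, the ligand-binding chain of the interferon gamma receptor, had 25.1 and 18.1 RPKM in cKO FAPs, against 45.4 and 57.6 RPKM in WT FAPs (log2 fold change -1.22, 95% interval -1.65 to -0.79, adjusted p = 0.00267). Both cKO libraries of Ifngr1 lay below both WT libraries.

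In the pathway from nucleic acid sensing to interferon induction, 6 of 17 tested genes rose (35.3%) and 1 fell, with a median of 0.24. This is near the 35.9% and the median of 0.27 of all tested genes, and each rescaling left 2 higher and 2 lower. Tbk1, the kinase that activates Irf3, had 17.8 and 21.0 RPKM in cKO FAPs, against 9.03 and 8.81 RPKM in WT FAPs (log2 fold change 1.04, adjusted p = 0.00181 in limma). Tank, a scaffold that binds Tbk1, had 12.6 and 13.5 RPKM in cKO FAPs, against 6.51 and 5.27 RPKM in WT FAPs (log2 fold change 1.03, adjusted p = 0.00244). Tmem173, which encodes the DNA-pathway adaptor STING, had 26.7 and 20.6 RPKM in cKO FAPs, against 13.1 and 14.2 RPKM in WT FAPs (log2 fold change 0.74, adjusted p = 0.00819), and its call was lost under the rescalings (0.37 to 0.43). Unc93b1, which escorts Toll-like receptors to endosomes, was the gene that fell, with 6.48 and 5.69 RPKM in cKO FAPs, against 7.98 and 9.36 RPKM in WT FAPs (log2 fold change -0.45, adjusted p = 0.0485). That call was lost without WT 1 (0.115), WT 2 (0.343), or cKO 2 (0.114).

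Among 19 tested restraints on interferon signalling, 1 rose (5.26%) and 1 fell, with a median of 0.21, where all tested genes had 35.9% higher, 6.48% lower, and a median of 0.27. Pias4, a SUMO ligase that inhibits interferon signalling, had 5.45 and 5.62 RPKM in cKO FAPs, against 2.48 and 3.13 RPKM in WT FAPs (log2 fold change 0.79, adjusted p = 0.00762 in limma, and 0.0691 without WT 1). Socs3, a cytokine-induced inhibitor of Janus kinases, had 196.9 and 86.7 RPKM in cKO FAPs, against 253.3 and 346.5 RPKM in WT FAPs (log2 fold change -1.17, adjusted p = 0.0292). Socs3 was lowest in cKO 2, as Irf1 and the sum of the dissociation list were. Socs3 is itself on the dissociation list, so its likeness to that sum is partly built in.

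A wider list of 93 other interferon-stimulated genes had 59 tested, of which 22 rose (37.3%) and 2 fell, with a median of 0.40. This share is near the 35.9% of all tested genes called higher, and after rescaling 9 to 11 of the 59 were higher (15.3% to 18.6%) and 4 to 7 lower, so the count is no result about this list. Ifi202b, of the family of DNA-binding HIN-200 proteins, had 12.3 and 20.0 RPKM in cKO FAPs, against 1.73 and 2.27 RPKM in WT FAPs (log2 fold change 2.48, adjusted p = 5.22e-04 in limma). Nlrc5, the activator of MHC class I genes, had 1.70 and 1.82 RPKM in cKO FAPs, against 0.157 and 0.142 RPKM in WT FAPs (log2 fold change 1.26, adjusted p = 0.00121). Both WT libraries were under the filter of 1 RPKM, so Nlrc5 had to be higher to be tested. Ifi47, another immunity-related GTPase, had 5.29 and 5.57 RPKM in cKO FAPs, against 2.25 and 1.70 RPKM in WT FAPs (log2 fold change 1.12, adjusted p = 0.00247). These 3 genes had the smallest p among those that rose, and 2 genes moved the other way. Pml, the organiser of nuclear bodies, had 2.65 and 2.43 RPKM in cKO FAPs, against 4.43 and 4.32 RPKM in WT FAPs (log2 fold change -0.60, adjusted p = 0.016), which was lost without WT 1 (0.119) or WT 2 (0.101).

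**Figure D4:**
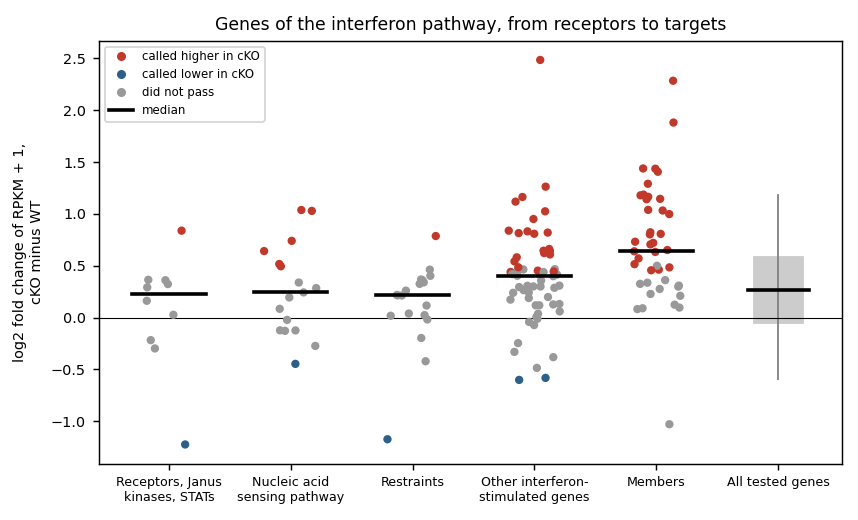
Fold change (log2 of RPKM + 1, cKO minus WT) of each tested gene by list, coloured by its call, with a black line at the median. For all tested genes a grey box spans the 25th to the 75th percentile and a grey line runs between the 5th and the 95th (-0.60 and 1.18). The members' median of 0.64 is the highest of the lists, whose others lie between 0.21 and 0.40.

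Features of the whole libraries are given here, and some of them moved with genotype. Depth, computed from the step that 1 read makes in olfactory receptor genes, did not. It was 46.5 M and 89.1 M reads in WT 1 and WT 2, and 90.4 M and 41.4 M in cKO 1 and cKO 2 (1 M is 1000000). Bap1 had 14.2 and 15.3 RPKM in cKO FAPs, against 14.0 and 12.9 RPKM in WT FAPs, but 1 value per gene cannot show a removed exon and so does not check the genotype. Ly6a, whose product Sca1 was used for the sort and which is itself interferon-inducible, had 108.4 and 47.0 RPKM in cKO FAPs, against 216.4 and 119.7 RPKM in WT FAPs (log2 fold change -1.16, adjusted p = 0.048 in limma, lost without WT 1 and without cKO 2, with adjusted p of 0.0631 and 0.138). All 10 FAP markers were at 1 RPKM or more in every library, and 7 of them were called lower in cKO FAPs and 0 higher. Hematopoietic markers summed to 25.1 and 25.3 RPKM in cKO FAPs, against 13.6 and 19.7 RPKM in WT FAPs, with 15 of 22 under 1 RPKM in every library. Of these markers 2 of 6 tested were called higher (33.3%), near the 35.9% of all tested genes. The defining marker Ptprc was at 0.254 and 0.195 RPKM in cKO FAPs, against 0.00164 and 0.111 RPKM in WT FAPs. Endothelial markers summed to 72.6 and 74.5 RPKM in cKO FAPs, against 73.3 and 91.5 RPKM in WT FAPs. Of 9 tested endothelial genes 3 were called higher (33.3%, also near the share of all tested genes) and 1 lower. The 3 were Ecscr, Esam, and Cdh5, whose means in cKO FAPs were 8.01, 4.55, and 3.48 times those in WT FAPs, the 1 lower was Eng, and Pecam1, which encodes the sort antigen CD31, had 0.537 and 1.63 RPKM in cKO FAPs, against 1.67 and 3.12 RPKM in WT FAPs. Chondrocyte markers were called higher for 10 of 10 genes and summed to 2214 and 1891 RPKM in cKO FAPs, against 28.5 and 23.6 RPKM in WT FAPs. Of the tested markers, 6 of 6 of tenocytes, 7 of 8 of smooth muscle and pericytes, and 5 of 5 of Schwann cells were called higher, and 6 of 7 of myofibers lower. Under each of the 3 rescalings, 2 of 5 Schwann cell markers and 6 of 8 smooth muscle and pericyte markers were called higher. All chondrocyte and tenocyte calls stayed, and 7 of 7 myofiber markers were lower. The part of these cell types in the values of the members was not tested.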

How the data were processed

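The authors deposited RPKM values per gene for 4 libraries. TopHat2 (version 2.0.9), bedtools, edgeR, and the builds mm9 and mm10 appear in the submitters' processing notes with no role. The annotation, the counting rule, and strand use are not given in the sources used here. RPKM divides by the library total, so abundant genes that change move all others. All value columns were used.

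Values were taken as log2(RPKM + 1), which understates changes of low genes. A gene entered the test when 2 or more libraries reached 1 RPKM. The difference cKO minus WT was fitted in limma (version 3.58.1, under R 4.3.3) with lmFit and eBayes with trend, as a two-sided test adjusted by Benjamini-Hochberg over 11197 genes and called at 0.05. With 2 libraries per group, no exact permutation p can be lower than 0.333. The procedure was tested on simulated data in which a small part of the genes changed, in both directions, with no shift of the whole table. That simulation therefore does not check calls on the shifted deposited scale. The members and lists were chosen with earlier results of these data known, so no list was tested. Values in every library are given for members that passed and for the 2 most abundant members of each role. Of each other list they are given for up to 3 genes per direction that passed, by smallest p, or for its 2 most abundant genes where none passed. Genes of these lists that the rule takes but the text does not name are not reported here. Depth was computed from intronless olfactory receptor genes, taking 1 step above the value of genes without reads as 1 read. Exon overlaps were read from GENCODE on GRCm38, and the authors may have used another build. Alternatives were pseudocounts of 0.1 and 0.5, no filter or 5 RPKM, 3 scalings, eBayes without trend or robust, the replicate number as a block, each library left out, and the adjusted p limit of the study.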

Additional observations from a re-analysis of the deposited data

How the results depend on the processing

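The count of members called higher was 28, and it was 18 of 26 tested with a filter of 5 RPKM, 20 with no filter, 15 under median-ratio scaling, 15 under quantile normalization, 16 under cyclic loess, and 0 at the adjusted p limit of the study (1e-05). The study set that limit for its own analysis. In limma here the chondrocyte marker Acan, with a cKO mean 144 times that of WT, missed it (adjusted p = 1.18e-05), whereas Col2a1 passed (1.03e-07). Leaving out 1 library gave 19 to 29 members higher (20 without WT 1, 19 without WT 2, 29 without cKO 1, and 24 without cKO 2) and 0 to 1 lower, taking the lone library to vary like the other group. The median fold change of the members was 0.84 and 0.75 with pseudocounts of 0.1 and 0.5, 0.73 with the 5 RPKM filter, 0.42, 0.38, and 0.41 under the 3 scalings, and 0.58 to 0.71 with a library left out. The difference between role groups was 0.29 with the 5 RPKM filter and -0.066 to 0.18 with a library left out. The cause of these shifts was not tested. For Oasl2, Ddx58, Irf7, Samd9l, Rtp4, Isg20, and Parp14, both WT libraries were under 5 RPKM. At that filter these members had to be higher to be tested, so their calls there lend no support. The median and the role group difference at that filter include them.

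Among single members, fold changes turned negative under median-ratio, quantile, and cyclic loess scaling for Irgm1 (-0.015, -0.079, -0.074), Stat2 (-0.10, -0.18, -0.16), Irf9 (-0.18, -0.23, -0.24), Ifit2 (-0.17, -0.17, -0.11), and Cmpk2 (-0.14, -0.13, -0.094). Under median-ratio scaling Mx2 was at -0.0020 and Ifitm3 at -0.24, and Bst2 was at -0.026 under quantile and -0.045 under cyclic loess normalization. With a library left out, Cmpk2 ranged from -0.033 to 0.21, with -0.027 without WT 1 and the lowest without cKO 2, and Ifitm3 ranged from -0.091 without cKO 2 to 0.25 without cKO 1. Cyclic loess added Ifitm2 (0.29, adjusted p = 0.0487 in limma) to the members called higher. With no filter on low values, 9 calls were lost, those of Ddx58, Ifih1, Irf7, Ifitm1, Xaf1, Usp18, Trim30a, Herc6, and Trim25.

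The labels number the libraries of each genotype without saying that a number pairs them, and same-numbered libraries deviated in opposite directions (r = -0.30 over 11197 genes, which are not independent replicates). With the replicate number as a block, 24 members were higher and 1, Irf1, was lower. A crossed pairing, added after seeing the data, gave 30 higher and 1 lower. Depth of 41.4 M to 90.4 M reads limits the lowest genes.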
